A study of Mus musculus with 15 samples.

Results

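The genes of fatty acid oxidation and 5 of its regulators were followed in cultured mouse cardiomyocytes. The members were 35 genes listed by their known role in the pathway, with earlier results of these data known. All 35 were among the 14337 genes of the deposited table. They comprised 4 acyl-CoA synthetases, 5 genes of the carnitine shuttle, 7 acyl-CoA dehydrogenases and electron transfer flavoprotein genes, 6 enzymes of the hydration to thiolysis steps, 6 enzymes for unsaturated or peroxisomal chains, 2 thioesterases, and the 5 regulators Ppara, Ppargc1a, Ppargc1b, Esrra and Esrrg. The mean log2 RPKM (reads scaled to gene length and library size, on a log2 scale) reached the minimum of 0 used for testing in 34 of them, out of 12848 genes that reached it. Cpt1b, at −0.70, was the one that did not.

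RNA-Seq of poly(A)-captured RNA was performed on primary cardiomyocytes from whole hearts of C57/BL6 wild-type pups, 1 to 3 days old. The cells were cultured for 5 days and serum-starved for 24 h in medium with 0.5% FBS, and treatment began on day 6. The 4 groups shared the strain, the starvation and the harvest on day 8. There were 3 control libraries from cells given saline (S1, S2, S3), 4 from cells given 1 µM angiotensin II on that day and the next (AngII; S5, S6, S7, S8), 4 from cells given 20 nM cilengitide (low-dose cilengitide, ldCil; S9, S10, S11, S12) and 4 from cells given both (AngII + ldCil; S13, S14, S15, S16). Angiotensin II is a peptide hormone used to provoke hypertrophy in cultured heart cells, and cilengitide is a cyclic peptide that binds αv integrins. The comparisons address how this pathway stood in AngII-stressed cells and whether ldCil altered that. The cells are a newborn culture model, and nothing states that the libraries of a group came from separate cultures, so each p-value is a measure of library-to-library spread alone, part or all of which may be technical.

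Fatty acids are the main fuel of the adult heart. They are joined to coenzyme A by acyl-CoA synthetases, carried into mitochondria by the carnitine shuttle, whose first enzyme (Cpt1) is the controlled step, and shortened in repeated rounds of dehydrogenation, hydration, a further dehydrogenation and thiolysis. The newborn heart turns from glucose and lactate to fatty acids after birth, and the nuclear receptors PPARα, ERRα and ERRγ with the coactivators PGC-1α and PGC-1β drive transcription of these enzymes, while a return towards glucose use is a known feature of the failing heart.

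The labelled cell type was checked against marker genes. All 17 cardiomyocyte markers were in the table, with means of 6.86 to 11.99 log2 RPKM over the 15 libraries, against 3.58 to 10.18 for 12 fibroblast markers, 2.07 to 10.11 for 8 smooth muscle markers, 1.28 to 7.37 for 10 macrophage markers, 0.69 to 5.90 for 9 endothelial markers and −0.93 to 6.38 for 6 epicardial markers. Of 8 adipocyte markers, 1 was in the table (Cidea, at 3.91). Markers of the other heart cell types were thus present beside those of cardiomyocytes. These are bulk samples, in which fewer cells of a type and less RNA per cell cannot be told apart. Without read counts, library depth is unknown. Library S5 held the highest value of 21.8% and the lowest of 21.8% of all genes tested. S11, S15 and S16 also stood apart, with the highest value in 15.1%, 12.1% and 16.3% of genes and the lowest in 13.1%, 10.9% and 11%.

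The promoters of Acadm and Acadvl are shown first, since these 2 acyl-CoA dehydrogenase genes varied together among the libraries and each holds the core motif bound by many nuclear receptors, the letters AGGTCA or, on the opposite strand, TGACCT. Each line gives 300 bases, from 250 before to 50 after the gene start, written 5′ to 3′ on the gene's own strand, from RefSeq on GRCm38.p6, with the motif in capitals. Both genes run on the minus strand. The window of Acadm is chr3:153944594-153944893 and that of Acadvl is chr11:70015379-70015678.
Acadm: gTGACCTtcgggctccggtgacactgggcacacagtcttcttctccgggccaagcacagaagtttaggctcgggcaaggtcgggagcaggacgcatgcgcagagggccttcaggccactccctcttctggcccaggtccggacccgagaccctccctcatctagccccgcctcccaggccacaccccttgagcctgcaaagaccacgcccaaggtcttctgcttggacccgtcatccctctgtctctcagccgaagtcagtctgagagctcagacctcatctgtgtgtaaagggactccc
Acadvl: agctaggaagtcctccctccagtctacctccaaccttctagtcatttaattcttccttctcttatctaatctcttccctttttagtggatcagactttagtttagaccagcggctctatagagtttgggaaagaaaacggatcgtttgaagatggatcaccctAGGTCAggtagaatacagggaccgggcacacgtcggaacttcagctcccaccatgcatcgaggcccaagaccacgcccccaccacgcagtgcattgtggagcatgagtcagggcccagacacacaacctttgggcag

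The motif began 249 bases before the start in Acadm, on the opposite strand, and 87 bases before it in Acadvl, on the gene's strand. RefSeq promoter entries were matched by symbol for 27 of the 35 genes. Among these 27, the motif was also present in Cpt1a and Echs1, which gave 4 genes (14.8%), against 18.1% of 27025 genes with a promoter entry. The longer element bound by ERR receptors (TNAAGGTCA, either strand, which contains the motif) was found in 0 of 27, against 1.43% of all, and the PPAR element (AGGNCA repeated in the same direction after 1 base, either strand) in 0 of 27, against 0.451%. These are matches of letters in a window of 300 bases. Acsl1, Cpt2, Hadh, Eci1, Ppara and Ppargc1a were, as Acadm and Acadvl were, highest in S6, S7, S12 and S15. None of the windows of these further genes holds the motif. Cpt1a and Echs1 hold it and were not highest in those libraries as a set. Whether the motif has a part in the variation was not tested. Hadha and Hadhb, which encode both subunits of the mitochondrial trifunctional protein, start 85 bases apart on opposite strands of chromosome 5, and their windows share 228 bases.

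Levels of the 35 genes, which are per length and so can be set side by side, spanned from −0.70 to 8.05 log2 RPKM as means of 15 libraries. Acadl, the long chain acyl-CoA dehydrogenase, was highest at 8.05, above 98.3% of the genes in the table. It was followed by Hadha at 7.51, Acaa2, the last thiolase of the mitochondrial spiral, at 7.42, Acadm at 7.26 and Acadvl at 7.21. Neighbours among these 4 differed by less than the SD of either over the libraries, which was 0.17 for Hadha, 0.21 for Acaa2, 0.49 for Acadm and 0.25 for Acadvl. Acsl1, the main synthetase of the adult heart, stood at 6.36, above Acsl5 at 5.39, Acsl4 at 4.44 and Acsl3 at 2.73. Among the regulators, Esrra was highest at 5.95, then Esrrg at 4.96, Ppargc1a at 4.28, Ppargc1b at 3.53 and Ppara at 1.64. Ehhadh, a peroxisomal bifunctional enzyme and a classical target of PPARα, was also low, at 1.62. Slc25a20, the carnitine-acylcarnitine carrier, varied least, between 4.78 and 5.11.

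**Figure D1:**
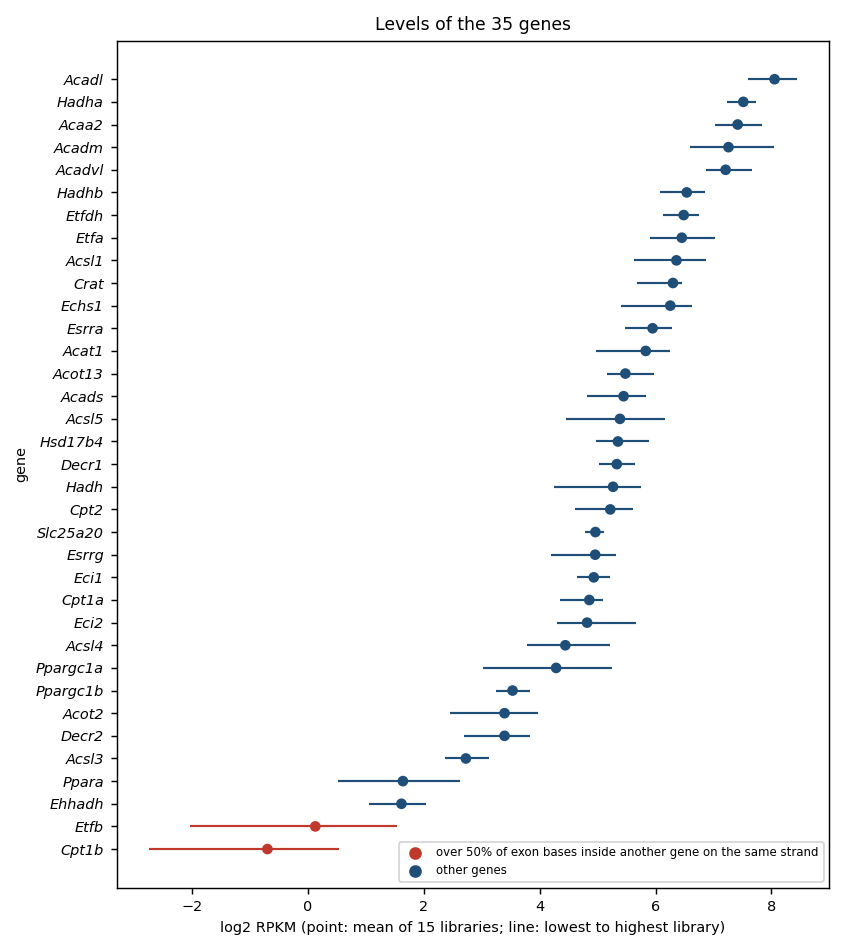
Level of each of the 35 genes in log2 RPKM (horizontal axis), with the point at the mean of 15 libraries and the line from the lowest to the highest library. Acadl is highest at 8.05 and the 2 genes in red, Etfb at 0.13 and Cpt1b at −0.70, are lowest, and both have over 50% of their exon bases inside another gene on the same strand.

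The 2 lowest genes were Etfb, the beta subunit of the electron transfer flavoprotein, at 0.13, and Cpt1b, the muscle form of carnitine palmitoyltransferase 1, at −0.70. Etfa, the partner subunit of Etfb in the same protein, stood at 6.45. By GENCODE M21 (GRCm38), 81.4% of the exon bases of Cpt1b (chromosome 15, 89416405 to 89425863, minus strand) lie inside exons of Gm44502 on the same strand. For Etfb (chromosome 7, 43444083 to 43457800, plus strand) 58.2% of the exon bases lie inside other genes on the same strand, chiefly Gm45233. The counting tool named by the submitters, HTSeq, by default leaves out reads that fall on more than 1 gene. The annotation release and the strand setting of the count are not stated in any source used here, and whether the overlap lowered these 2 genes was not tested. Of the other 33 genes, 23 had no exonic overlap, 9 had under 10% of their exon bases overlapped, and Acadvl had 42.9%, all with Dvl2 on the opposite strand. Reads of Acot2 may be shared with its near-identical neighbour Acot1, so its values are uncertain.

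Cpt1a, the liver form of the gate enzyme, was at 4.87, 4.94 and 4.86 in the control libraries, 4.35, 4.97, 5.05 and 4.75 with AngII, 4.82, 4.76, 5.10 and 5.00 with ldCil and 4.81, 4.90, 4.65 and 5.02 with AngII + ldCil. The 4 groups overlapped, and the AngII minus control difference was −0.11 (SE 0.157). Cpt1b was at −1.40, −1.01 and −2.74 in control, −2.04, 0.02, 0.30 and −0.19 with AngII, −0.21, −1.70, −0.60 and 0.21 with ldCil and −0.41, −1.06, 0.54 and −0.15 with AngII + ldCil. Its control values were low, and S5, S10 and S14 of the other groups lay within their range. The log2 ratio of Cpt1b to Cpt1a within each library averaged −6.61 ± 0.876 (SD, n = 3) in control, −5.26 ± 0.757 (n = 4) with AngII, −5.49 ± 0.747 (n = 4) with ldCil and −5.11 ± 0.762 (n = 4) with AngII + ldCil. None of the differences passed, with the largest, 1.49 for AngII + ldCil minus control, at p = 0.114 by the exact permutation test (2-sided). Without the filter on low values, limma gave Cpt1b differences of 1.24 (SE 0.652) for AngII and 1.45 (SE 0.652) for AngII + ldCil against control, with Benjamini-Hochberg adjusted p = 0.615 and 0.664.

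AngII against control was the first comparison. No gene of the 12848 passed an adjusted p of 0.05 in limma with Benjamini-Hochberg adjustment (smallest 0.782). The median log2 fold change of the 34 genes tested was 0.08, against 0.02 over all genes, and 24 of the 34 (70.6%) were higher with AngII, where 53.7% of all genes were. With libraries weighted by how closely they followed the group means, 6245 of the 12848 genes and 17 of the 34 passed an adjusted p of 0.05. By role, all 7 genes of dehydrogenation and electron transfer were higher (median 0.21, from 0.09 for Etfdh to 1.16 for Etfb, SE 0.593). Etfb, at a mean of 0.13 log2 RPKM, was just above the minimum for testing, and the next largest of the 7 was Acadm at 0.46. All 6 from hydration to thiolysis were higher (median 0.22, from 0.04 for Echs1 to 0.34 for Acat1). The other roles were mixed, with 2 of 4 higher among the synthetases, 2 of 4 in the carnitine shuttle, 4 of 6 among the enzymes of unsaturated and peroxisomal chains, 1 of 2 thioesterases and 2 of 5 regulators. None of these role counts was tested. Values of similar size were also found outside the 2 roles in which every gene was higher, at 0.28 for Cpt2 and 0.21 for Acsl1 and Ppara. Without S3, 6 of the 7 and 5 of the 6 were higher, and without S5 the median of the 7 was 0.10 and 5 of the 6 were higher.

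At an unadjusted p under 0.05, 2 of the 34 stood out in AngII against control, both lower, where 6.04% of all genes did so in either direction and 2.63% were lower. They were Decr2, the peroxisomal dienoyl-CoA reductase that handles unsaturated chains, and Acot2, the mitochondrial thioesterase that splits acyl-CoA. The groups did not overlap for these 2 genes, where 3.68% of all genes were lower without overlap. No gene of the 34 was higher without overlap, where 5.06% of all genes were.

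Decr2 (chromosome 17, 26081208 to 26090337) was at 3.83, 3.69 and 3.72 log2 RPKM in control and at 2.69, 2.92, 3.03 and 3.54 with AngII. Each AngII library was below each control library, with S8 nearest to them. The log2 fold change was −0.70 (SE 0.191), with an adjusted p of 0.782 from limma. The exact permutation test (2-sided) gave p = 0.0571, the smallest that 4 libraries against 3 allow. With ldCil the values were 3.27, 3.68, 3.04 and 3.23, again each below control (−0.44, SE 0.191), and with AngII + ldCil they were 3.66, 3.47, 3.43 and 3.72, which overlapped control (−0.18, SE 0.191). Decr2 is among the genes the study chose to show on these same libraries, as altered by AngII and restored with ldCil. Neither its direction with AngII nor its difference between AngII + ldCil and AngII is therefore independent evidence.

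Acot2 (chromosome 12, 83987861 to 83993873) was at 3.98, 3.52 and 3.77 in control and at 2.45, 3.47, 3.31 and 3.42 with AngII. S5 was far below the other AngII libraries. The log2 fold change of −0.60 (SE 0.218, adjusted p = 0.782) became −0.36 without S5. With ldCil Acot2 was at 3.63, 3.57, 3.26 and 3.23, and with AngII + ldCil at 3.24, 3.40, 3.28 and 3.39.

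**Figure D2:**
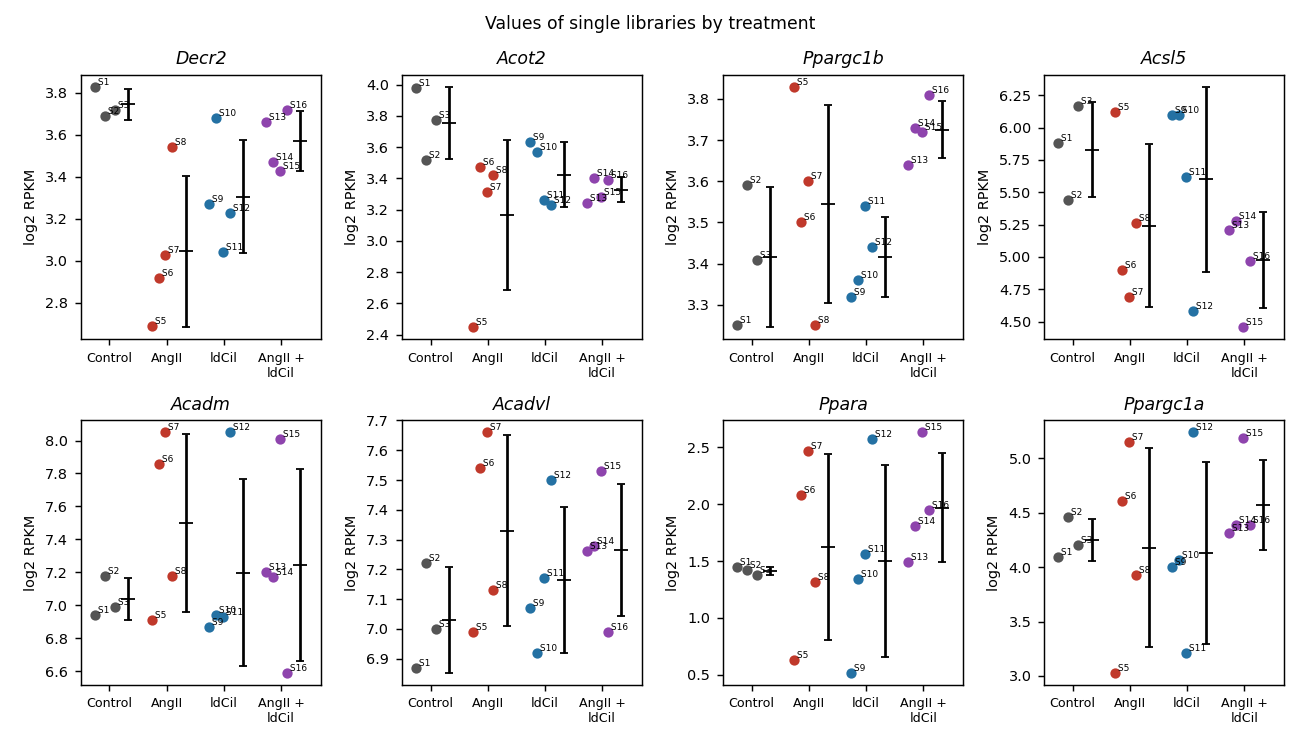
Log2 RPKM (vertical axes, each with its own range) of 8 genes in the libraries of the 4 groups, with every library a labelled point and the mean with its SD in black. Decr2 lies between 2.69 and 3.54 with AngII and between 3.69 and 3.83 in control, and Acadm lies between 7.86 and 8.05 in S6, S7, S12 and S15 but no higher than 7.20 elsewhere.

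The genes with the best known roles in the spiral varied mostly within groups. Acadm, the medium chain acyl-CoA dehydrogenase, was at 6.94, 7.18 and 6.99 in control, 6.91, 7.86, 8.05 and 7.18 with AngII, 6.87, 6.94, 6.93 and 8.05 with ldCil and 7.20, 7.17, 8.01 and 6.59 with AngII + ldCil. In 3 of the 4 groups it split into a high and a low set. The AngII minus control difference was 0.46 (SE 0.351), or 0.65 without S5 and 0.27 without S7. Acadvl, the very long chain enzyme, was at 6.87, 7.22 and 7.0 in control, 6.99, 7.54, 7.66 and 7.13 with AngII, 7.07, 6.92, 7.17 and 7.50 with ldCil and 7.26, 7.28, 7.53 and 6.99 with AngII + ldCil. The same libraries were high, and the difference was 0.30 (SE 0.185), or 0.41 without S5 and 0.19 without S7. Hadha was at 7.43, 7.56 and 7.32 in control, 7.71, 7.73, 7.74 and 7.51 with AngII, 7.32, 7.47, 7.27 and 7.68 with ldCil and 7.51, 7.53, 7.70 and 7.23 with AngII + ldCil. Only its lowest AngII value reached into the control range, and the difference was 0.23 (SE 0.131). Acsl1 was at 6.01, 6.42 and 6.18 in control, 5.63, 6.79, 6.87 and 6.36 with AngII, 6.19, 6.23, 6.31 and 6.70 with ldCil and 6.60, 6.46, 6.71 and 5.94 with AngII + ldCil. S5 and S16 were its lowest libraries. Its AngII minus control difference of 0.21 (SE 0.263) was 0.47 without S5 and 0.06 without S7.

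Leaving out S5 and S16 together was decided after the values were seen. AngII against control then gave 7 of the 34 at an unadjusted p under 0.05, where 14.7% of all genes did. Acsl1 (0.47, SE 0.167), Acat1, the acetoacetyl-CoA thiolase (0.43, SE 0.18), Acadvl (0.41, SE 0.17) and Hadh, the hydroxyacyl-CoA dehydrogenase (0.38, SE 0.149), were higher. Decr2 (−0.58, SE 0.184), Acot2 (−0.36, SE 0.148) and Acsl5, another synthetase (−0.88, SE 0.369), were lower. Their adjusted p-values ranged from 0.328 to 0.331. Acsl1, Acadvl and Hadh had their highest values in S6, S7, S12 and S15, and Acat1 in S7, S8, S12 and S15. No control library is among these.

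AngII was next compared in the presence of ldCil, AngII + ldCil against ldCil alone, which shares no library with AngII against control. The median of the 34 genes was 0.07, against 0.03 over all genes, and 23 (67.6%) were higher, where 57% of all genes were. Single libraries moved this count, to 16 of 34 without S15 and to 26 of 34 without S16. The direction was the same in both AngII comparisons for 23 of 34 genes (67.6%), of which 18 were higher in both and 5 lower in both, where it was the same for 51.9% of all genes tested. How far this shared direction rests on single libraries was not examined. At an unadjusted p under 0.05 there was 1 of 34, where 5.07% of all genes passed. This was Ppargc1b, the coactivator PGC-1β. It was at 3.32, 3.36, 3.54 and 3.44 with ldCil and at 3.64, 3.73, 3.72 and 3.81 with AngII + ldCil. Every AngII + ldCil library was above every ldCil library (0.31, SE 0.13, adjusted p = 0.974). Acadl was the other gene without overlap, at 7.94, 7.96, 7.60 and 7.91 with ldCil and 8.16, 8.18, 7.99 and 8.13 with AngII + ldCil (0.26, SE 0.126), where 2.22% of all genes were higher without overlap. No gene of the 34 was lower without overlap, where 1.07% of all genes were. For both, the exact permutation test gave p = 0.0286, the smallest that 4 libraries against 4 allow, and 0.938 after Benjamini-Hochberg adjustment over 175 tests.

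Ppargc1b was also at 3.25, 3.59 and 3.41 in control, below each AngII + ldCil library, and at 3.83, 3.50, 3.60 and 3.25 with AngII. The call for Ppargc1b against ldCil was lost when any of S9, S10, S14, S15 or S16 was left out, with differences between 0.28 and 0.31 in those fits. Acsl5 was lower by a similar amount in both AngII comparisons, −0.58 (SE 0.379) and −0.62 (SE 0.351), and neither passed. Acsl4, which prefers arachidonic acid, was at −0.47 (SE 0.301) and −0.24 (SE 0.278).

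**Figure D3:**
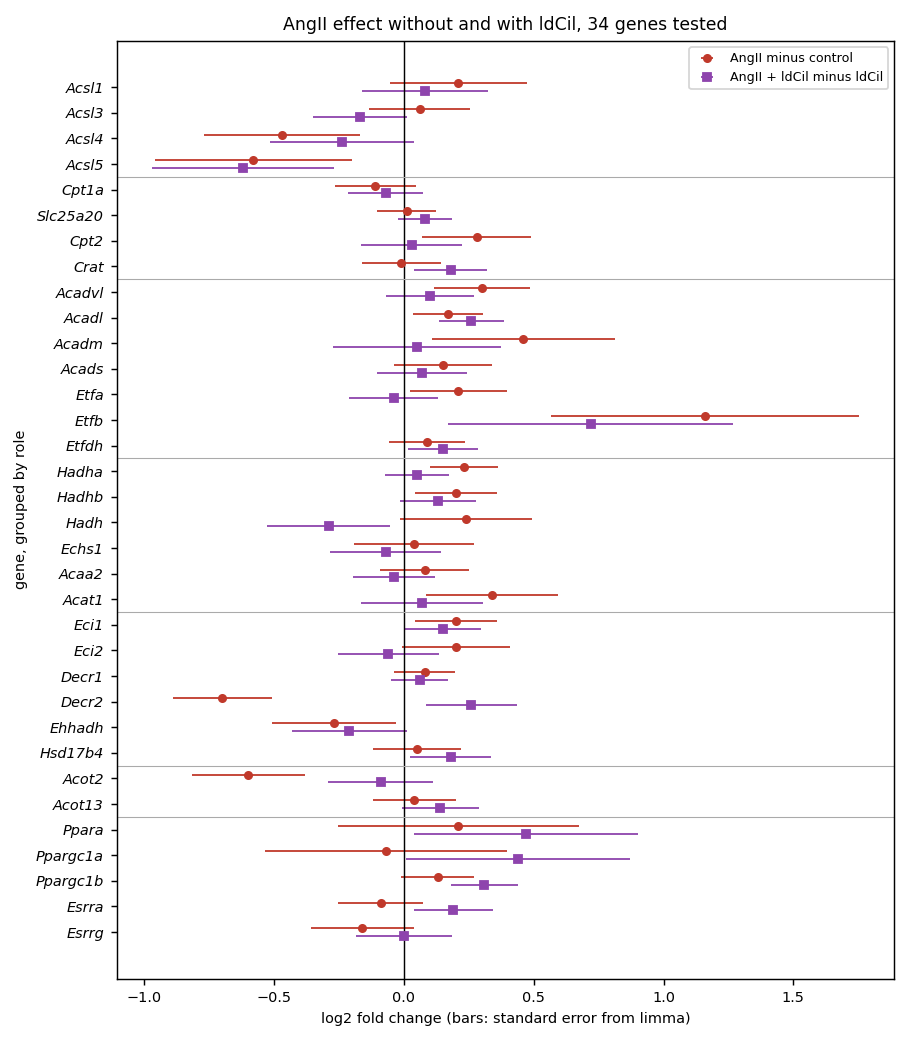
Log2 fold change (horizontal axis, bars are limma standard errors) of AngII minus control in red circles and of AngII + ldCil minus ldCil in purple squares for the 34 genes tested, grouped by role from the synthetases at the top to the regulators at the bottom. Decr2 stands at −0.70 without ldCil and 0.26 with it, and 23 of the 34 genes lie on the same side of 0 in both comparisons.

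ldCil alone against control gave a median of −0.03 over the 34 genes, against 0.00 over all genes, with 14 higher (41.2%, against 50.3% of all genes) and 20 lower. Decr2 was the 1 gene with an unadjusted p under 0.05 (−0.44, SE 0.191, adjusted p = 0.966), where 1.95% of all genes passed, and it was also the 1 gene lower without overlap, where 3.37% of all genes were. None was higher without overlap, where 3.50% of all genes were. The call for Decr2 was lost without S1, S2, S3, S9, S11 or S12, each left out in turn, with differences between −0.47 and −0.35 in those fits. The dehydrogenation and electron transfer genes had a median of 0.00 and the regulators of 0.00, and both thioesterases and 5 of the 6 enzymes of unsaturated and peroxisomal chains were lower.

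AngII + ldCil against AngII asked what ldCil did in stressed cells. The median was −0.07, against 0.01 over all genes, and 12 of 34 genes (35.3%) were higher, where 52.4% of all genes were. All 6 genes from hydration to thiolysis were lower (median −0.18, from −0.35 for Hadh to −0.03 for Acaa2), as were 6 of the 7 of dehydrogenation and electron transfer (median −0.16), whereas all 5 regulators were higher (median 0.18, from 0.09 for Esrra to 0.39 for Ppargc1a). None of these role counts was tested, and single libraries moved them. Without S5 the median of the regulators was 0.01, with Ppargc1a and Ppara at 0.01 and Esrrg at −0.04, and without S8 Esrra was at −0.02. Without S16, 3 of the 6 genes from hydration to thiolysis were lower (median −0.02) and the median of the dehydrogenation and electron transfer genes was −0.06. S16, an AngII + ldCil library, was the lowest of the 15 in 12 of the 35 genes, where it was lowest in 11% of all genes tested. Without S5 and S16, 19 of the 34 were higher in this comparison. The 1 gene with an unadjusted p under 0.05 was Decr2 (0.52, SE 0.177, adjusted p = 1), where 2.58% of all genes passed. It was 0.35 without S5 and S16, which did not pass. No gene of the 34 was free of overlap here, where 0.965% of all genes were higher and 0.584% lower without overlap.

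AngII + ldCil against control gave 2 of 34 genes at an unadjusted p under 0.05, where 5.62% of all genes passed. Acsl5 was lower (−0.85, SE 0.379, adjusted p = 0.849) and Ppargc1b higher (0.31, SE 0.14, adjusted p = 0.849). Acsl5 was at 5.88, 5.44 and 6.17 in control, 6.12, 4.90, 4.69 and 5.26 with AngII, 6.10, 6.10, 5.62 and 4.58 with ldCil and 5.21, 5.28, 4.46 and 4.97 with AngII + ldCil. It was lower than control in each AngII + ldCil library, and values under the control range were also found in S6, S7, S8 and S12 of the other groups. Etfb, Ppara and Ppargc1b were higher without overlap, where 7.35% of all genes were, and Acsl5 and Acot2 lower without overlap, where 6.11% were. The call for Acsl5 was lost without S1, S3, S15 or S16, and that for Ppargc1b was lost in 10 of the 15 fits with 1 library left out. The log2 ratio of Acsl1 to Acsl4, both synthetases of long chains, averaged 1.41 ± 0.444 (SD, n = 3) in control and 2.18 ± 0.341 (n = 4) with AngII + ldCil. This ratio did not overlap, with p = 0.0571 by the exact permutation test and 0.643 after adjustment over 15 ratio tests.

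The AngII by ldCil interaction, the AngII effect with ldCil minus that without it, was tested directly. Decr2 was the 1 gene of 34 at an unadjusted p under 0.05, where 3.86% of all genes passed, with 0.96 (SE 0.26). Its adjusted p was 0.958, so the difference did not pass. It kept an unadjusted p under 0.05 with each library left out in turn, at 0.84 to 1.12. The study showed Decr2 on these same libraries among genes altered by AngII and restored with ldCil. A choice of that kind favours a large interaction, so this value is not independent evidence. All 5 regulators had a positive interaction (median 0.26, from 0.16 for Esrrg to 0.51 for Ppargc1a, SE 0.634) and all 6 genes from hydration to thiolysis a negative one (median −0.15, down to −0.52 for Hadh, SE 0.347), none of which passed. Without S5, Ppara was at −0.07, Esrrg at −0.05 and Ppargc1a at 0.13, and without S9 Ppara was at −0.07. Without S16, 4 of the 6 were negative (median −0.05).

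Among the regulators the spread within groups was wide. Ppara, which senses fatty acids, was at 1.45, 1.42 and 1.38 in control, 0.63, 2.08, 2.47 and 1.32 with AngII, 0.52, 1.34, 1.56 and 2.57 with ldCil and 1.49, 1.81, 2.63 and 1.95 with AngII + ldCil. Ppargc1a, the coactivator PGC-1α, was at 4.09, 4.46 and 4.20 in control, 3.03, 4.61, 5.15 and 3.93 with AngII, 4.0, 4.07, 3.21 and 5.24 with ldCil and 4.31, 4.39, 5.19 and 4.39 with AngII + ldCil. Both were tight in control and spread over a log2 range of 2 or more over the 15 libraries, 2.11 for Ppara and 2.21 for Ppargc1a. Ppargc1b spread over 0.58 in all. Esrra, the receptor ERRα, was at 6.10, 6.07 and 5.91 in control, 6.08, 5.98, 6.07 and 5.60 with AngII, 5.77, 5.93, 5.48 and 6.14 with ldCil and 5.91, 6.06, 5.84 and 6.29 with AngII + ldCil, with no group apart. Esrrg, the receptor ERRγ, ranged from 4.20 in S5 to 5.31 in S15.

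**Figure D4:**
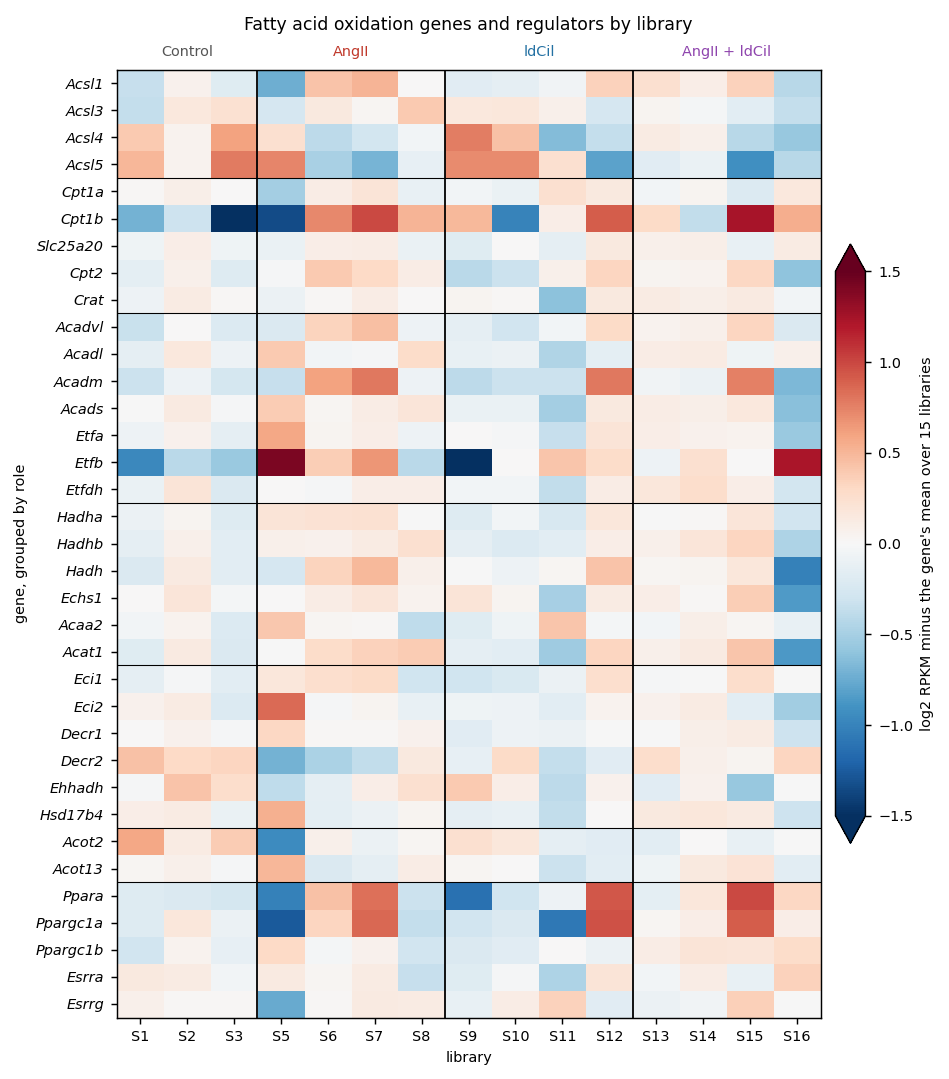
Log2 RPKM of the 35 genes (rows, grouped by role) in the 15 libraries (columns, grouped by treatment), each minus the gene's mean over the libraries, with the colour scale ending at 1.5 either way. S6, S7, S12 and S15 are red for Acadm, Acadvl, Ppara and Ppargc1a across 3 treatment groups, and S16 is blue for Hadh, Acat1 and Echs1.

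The libraries S6, S7, S12 and S15, from 3 treatment groups, stood together in many of these genes. They held the 4 highest values for 9 of the 35 genes, namely Acsl1, Cpt1b, Cpt2, Acadvl, Acadm, Hadh, Eci1, Ppara and Ppargc1a, and for 8 of the 34 tested, where the same 4 libraries were highest for 5.52% of all genes tested. Acadm lay between 7.86 and 8.05 in them and between 6.59 and 7.20 in the other 11. Cpt2, the inner enzyme of the carnitine shuttle, lay between 5.52 and 5.61 against 4.61 to 5.33, and Eci1, an isomerase for unsaturated chains, between 5.19 and 5.22 against 4.64 to 5.10. Ppargc1a lay between 4.61 and 5.24 against 3.03 to 4.46. Acsl5 was the 1 gene with its 4 lowest values there, between 4.46 and 4.90 against 4.97 to 6.17, where 3.60% of all genes tested were lowest there. These libraries were picked out after their values were seen, and the pattern is given without a test.

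The mean of the 17 cardiomyocyte markers, each centred on its mean over the libraries, was highest in the same 4 libraries, at 0.20 in S6, 0.21 in S7, 0.20 in S12 and 0.26 in S15, and between −0.18 and 0.00 in the other 11. The markers did not all move together. Myl7 lay between 9.18 and 9.35 in these 4 libraries, above its mean of 7.74. Tnnt2 lay between 10.85 and 10.99, below its mean of 11.07, and Actc1 was at 11.54 in S6, S7 and S12, below its mean of 11.69. The mean of the 5 regulators was 0.16, 0.40, 0.37 and 0.46 there, and 0.21 in S16. The mean of the 29 enzymes and carriers tested was 0.07, 0.13, 0.08 and 0.06 there, and it did not set these 4 libraries apart, with 0.09 in S2 and 0.08 in S5 and S14. In S16 that mean was −0.27, the lowest, with fibroblast markers at −1.20 and macrophage markers at −1.46. The part that cell makeup had in these values was not tested. With the cardiomyocyte marker mean as a covariate in limma, Decr2 was at −0.64 (SE 0.201) and Acot2 at −0.64 (SE 0.233) in AngII against control, and Ppargc1a at −0.66 (SE 0.28). These were the 3 of 34 genes at an unadjusted p under 0.05, where 5.12% of all genes passed. Each had an adjusted p of 0.848. Without the covariate, Ppargc1a was at −0.07 (SE 0.466). The groups took a median of 18.6% of the variance of the 34 genes, against 18.3% over all genes, from 3.24% for Acaa2 to 59.8% for Decr2. The first principal component of all genes tested took 49% of the variance and had the same sign in S6, S7, S8, S11, S12, S15 and S16. No control library is among these. S1, S2 and S3 had the other sign (37.3, 14 and 43), as did S5, S9, S10, S13 and S14. The part of this component in the comparisons against control was not tested.

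**Figure D5:**
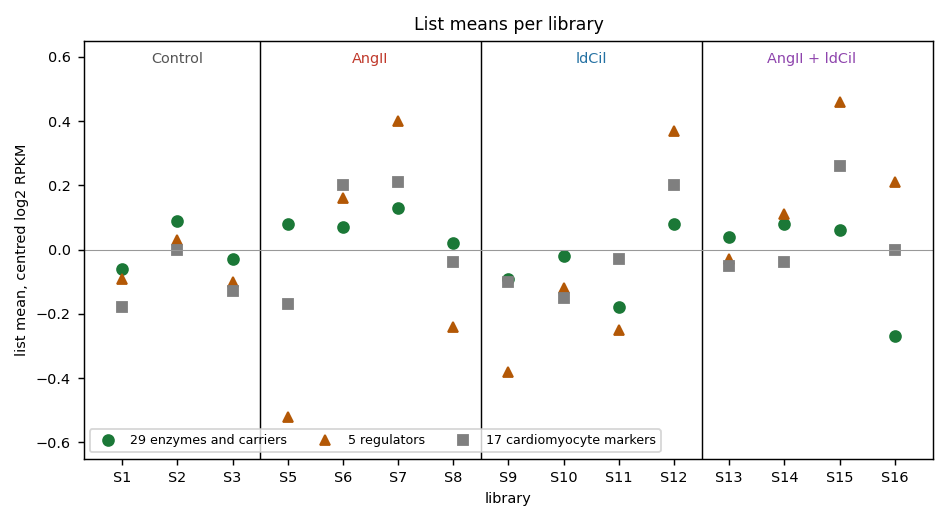
Mean of 29 enzymes and carriers (circles), 5 regulators (triangles) and 17 cardiomyocyte markers (squares) in each library, as log2 RPKM centred on each gene's mean over the 15 libraries. The cardiomyocyte markers are at 0.20 to 0.26 in S6, S7, S12 and S15 and at most at 0.00 elsewhere, and the regulators range from −0.52 in S5 to 0.46 in S15.

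Other genes of the pathway were taken from 3 further lists. Of 29 other pathway genes tested (uptake, binding, further peroxisomal enzymes), 22 (75.9%, against 53.7% of all genes) were higher with AngII than in control (median 0.12). At an unadjusted limma p under 0.05 there were 3, all higher, where 6.04% of all genes passed. Fabp3, which carries fatty acids in muscle cells, was at 7.10, 7.60 and 7.19 in control and 7.49, 8.01, 7.97 and 8.24 with AngII (0.63, SE 0.24), and Pecr, a peroxisomal reductase, differed by 0.46 (SE 0.203). In AngII + ldCil against ldCil, 23 of the 29 (79.3%, against 57% of all genes) were higher (median 0.07), 1 of them at an unadjusted p under 0.05, where 5.07% of all genes passed.

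Of 10 other PPAR target genes tested, 2 were higher and 8 lower with AngII than in control (median −0.13), where 53.7% of all genes were higher. At an unadjusted limma p under 0.05 there were 0, where 6.04% of all genes passed. In AngII + ldCil against ldCil, 3 were higher and 7 lower (median −0.11), where 57% of all genes were higher. Of these, 2 were lower at an unadjusted p under 0.05, where 5.07% of all genes passed in either direction. Angptl4, a secreted inhibitor of lipoprotein lipase, was at 4.48, 4.56, 5.81 and 3.18 with ldCil and at 1.84, 1.83, 1.47 and 2.73 with AngII + ldCil. The groups did not overlap (−2.54, SE 0.723, adjusted p = 0.974), where 1.07% of all genes were lower without overlap. Angptl4 was at 4.42, 2.32 and 4.94 in control. In the AngII group, S5, S6 and S7 (lowest of these, at 2.34) lay within the control range, and only S8, at 1.08, was below it. Ucp2, a mitochondrial carrier, differed by −0.69 (SE 0.232) in the same comparison, with S16 its lowest library at 4.29.

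Of 23 other regulators tested, 15 (65.2%, against 53.7% of all genes) were higher with AngII (median 0.07). At an unadjusted limma p under 0.05 there was 1, where 6.04% of all genes passed. That was Pparg, the receptor PPARγ, at 1.15, 0.08 and 0.51 in control, 2.21, 2.57, 1.80 and 1.35 with AngII, 1.10, 0.98, 3.27 and 1.69 with ldCil and 0.29, 0.34, 1.86 and 1.15 with AngII + ldCil. It was above control in each AngII library (1.41, SE 0.533), where 5.06% of all genes were higher without overlap. The interaction of Pparg was −2.26 (SE 0.726, adjusted p = 0.958). Prkaa2, a catalytic subunit of the energy sensor AMPK, was at 5.57, 6.03, 6.28 and 6.28 with AngII and 6.36, 6.51, 6.65 and 7.01 with AngII + ldCil (0.60, SE 0.188, adjusted p = 1). The groups again did not overlap, where 0.965% of all genes were higher without overlap. The interaction of Prkaa2 was 0.85 (SE 0.277). None of these genes passed an adjusted p of 0.05.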

How the data were processed

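RNA-Seq was performed on 15 libraries of cultured mouse cardiomyocytes. By the submitters' processing notes, reads were aligned to GRCm38 (mm10) with HISAT2 and counted with HTSeq, and no source used here gives their versions. The deposited values are log2 RPKM after conditional quantile normalisation by the authors, which adjusts for gene length and GC content, and all libraries have the same 75th percentile (4.93). No per-sample column was left unmapped, and unnamed trailing columns held fragments of gene descriptions. Depth per library is unknown, so no counting error is given.

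Testing was limited to genes whose log2 RPKM averaged at least 0 and used limma 3.58.1 (R 4.3.3), with 1 mean per group over all 15 libraries, a moderated spread that follows expression, and Benjamini-Hochberg adjustment over all 12848 genes. Exact permutation tests (SciPy 1.17.1, 2-sided) went over 35 genes in 5 contrasts and 3 ratios. Coordinates and exon overlaps came from GENCODE M21, where 14329 of the 14337 identifiers were found. The alternatives were other filters, pseudocounts of 0.1 or 1, centring on the median, quantile normalisation, only the groups compared, other moderation, library weights, a cardiomyocyte marker covariate, a residual component covariate and each library left out. Leaving out S5 and S16 together was chosen after seeing the data.

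The members and lists were chosen with earlier results of these data known. Values per library are given for 10 genes of known rate-limiting, diagnostic or regulatory roles or shown by the study, for members with an unadjusted p under 0.05 in any contrast, and from the other lists for genes with an unadjusted p under 0.01, or else the 2 of smallest p in AngII against control. Acadl, Etfb, Esrrg, Cpt2, Eci1 and other members were given values as members without overlap or by role after their values were seen.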

Additional observations from a re-analysis of the deposited data

Results flagged for a closer look

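In each group of 4 libraries, a library was marked where its gap to the nearest other library, as a share of the group's range, passed Dixon's critical value at the 5% level. Of 105 gene and group pairs tested, 15 were marked, where a nominal 5% gives 5.25. The share marked over all genes was not computed, so whether the count is particular to these genes is unknown. Of all genes tested, S5 held the highest value in 21.8% and S16 in 16.3%. With AngII, S5 was marked for Eci2 (5.67), Decr1 (5.64), Acot2 (2.45) and Esrrg (4.20), and S8 for Hadha (7.51). With ldCil, S11 was marked for Crat (5.68) and Acadl (7.60), S12 for Acadm (8.05) and S9 for Etfb (−2.04). With AngII + ldCil, S16 was marked for Acads (4.82), Etfa (5.90), Hadh (4.25) and Hsd17b4 (5.04), and S15 for Eci1 (5.20) and Ppargc1a (5.19), all in log2 RPKM. S5 and S16 thus held 4 each. The control group, with 3 libraries, was not examined this way.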

How the results depend on the processing

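The counts of genes at an unadjusted p under 0.05, out of 34, depended on the fit. With only the groups compared they were 4 for AngII against control (8.18% of all genes) and 5 for AngII + ldCil against control (10.7%). With library weights they were 17 for AngII against control (55.5% of all genes), 14 for AngII + ldCil against ldCil (28.5%), 5 for ldCil against control (12.3%), 13 for AngII + ldCil against AngII (44.9%), 13 for AngII + ldCil against control (32.7%) and 7 for the interaction (36.4%), and 17, 6, 0, 8, 8 and 4 of the 34 passed an adjusted p of 0.05, as did 6245, 1623, 3, 4048, 2311 and 2387 of all genes. The weights were estimated from these same values and ran from 0.113 for S5 to 7.01 for S1. Under them Ppargc1a turned to 0.72 in AngII against control and to −0.48 in AngII + ldCil against AngII, where Acsl1 turned to −0.27. With the cardiomyocyte marker covariate the counts were 3 for AngII against control (5.12% of all genes) and 3 for AngII + ldCil against ldCil (8.34%). They were 0 for ldCil against control (2.06%), 1 for AngII + ldCil against control (3.87%) and 2 for the interaction (5.77%). With the residual component they were 5 for AngII against control (15.1%) and 3 for AngII + ldCil against ldCil (10.9%), and Acsl5 passed adjustment in AngII + ldCil against control (adjusted p = 0.0197 in limma), as did 390 of all genes. Without S5 and S16 they were 7, 4, 2, 0 and 5 for the 5 contrasts in the order of the report and 2 for the interaction, where 14.7%, 6.55%, 3.73%, 1.82%, 7.12% and 6.24% of all genes passed, and the median in AngII + ldCil against ldCil was 0.19. The causes were not tested.

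With each library left out in turn, the counts ran from 1 to 5 for AngII against control (1 without S1, 5 without S5, 4 without S8), from 0 to 2 for AngII + ldCil against ldCil (0 without S9 or S14, 2 without S5 or S12), from 0 to 2 for ldCil against control (0 without S1, S2, S3, S9, S11 or S12, 2 without S5), from 1 to 2 for AngII + ldCil against AngII (2 without S5) and from 0 to 3 for AngII + ldCil against control (0 without S1, S3 or S15, 1 without S6, S7, S10, S12, S14 or S16, 3 without S2 or S5). The median in AngII + ldCil against ldCil ran from −0.01 without S15 to 0.19 without S16. The call for Acot2 in AngII against control was lost without S1 and with only the groups compared. With the other filters, pseudocounts, centring, quantile normalisation and moderation, the counts stayed as they were except that 1 added to RPKM gave 3 for AngII against control and no filter gave 3 for AngII + ldCil against control, and the medians moved by at most 0.01. No paired analysis was possible because the library titles share no replicate numbers between groups. Depth is unknown, so what it limits could not be given.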
